A study of Rattus norvegicus with 15 samples.

Results

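miR-199a-3p, miR-199a-5p and miR-214 were followed in rat sciatic nerve after injury. They were taken by their names on the array (rno-miR-199a-3p, rno-miR-199a-5p and rno-miR-214), 3 out of 350 rat miRNAs measured, because they are known as products of one mesenchymal transcript. The array was a 1-colour Agilent miRNA array, hybridised with total RNA of nerve from adult male rats, and 15 arrays were deposited. The groups, with 3 arrays each, were uninjured nerve (day 0) and nerve taken on days 1, 4, 7 and 14 after injury. The labels give no genotype, strain or drug for any group. They disagree on the lesion: the series text names a resection with proximal tissue of 0.5 cm, whereas the treatment protocol names a crush with damaged pieces of about 0.5 mm, so injury is used here for both. They do not say that arrays of a group came from separate animals, and each p-value then measures only how these samples spread, which may be technical.

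A miRNA hairpin is cut into a duplex with a 5p and a 3p arm, and either arm can be loaded into Argonaute, where bases 2 to 8, the seed, pair with target mRNAs. In mouse, miR-199a and miR-214 are made from Dnm3os, a long noncoding RNA that runs opposite to an intron of the dynamin gene Dnm3 and is active in mesenchyme, under the transcription factor Twist1. In fibrosis, miR-199a-5p is known to repress caveolin 1, and in nerve the mesenchymal cells are the fibroblasts of the endoneurium, perineurium and epineurium.

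The mature sequences are printed because the 3 miRNAs share no seed and are read by different probes. They are the RefSeq entries of the rat GRCr8 assembly, 5′ to 3′, and all 3 names matched an entry (miR-214 of the array is miR-214-3p there). Capitals mark the seed.
miR-199a-5p: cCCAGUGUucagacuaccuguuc
miR-199a-3p: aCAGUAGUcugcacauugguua
miR-214: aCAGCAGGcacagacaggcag
The seeds of miR-199a-3p and miR-214 had 5 of 7 bases in common at the same position, whereas the seed of miR-199a-5p had 3 in common with miR-199a-3p and 2 with miR-214. No other of the 693 rat mature sequences in the table had any of these seeds. Over the whole length, the closest other mature miRNA differed by 9 edits from miR-199a-5p, by 8 from miR-199a-3p and by 6 from miR-214, the last being miR-3120.

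On GRCr8 both hairpins lie on the plus strand of chromosome 13. The Mir199a2 hairpin spans chr13:77116225-77116334, with the 5p arm at chr13:77116255-77116277 and the 3p arm at chr13:77116294-77116315. The Mir214 hairpin spans chr13:77121645-77121752, with the mature miR-214 at chr13:77121713-77121733, and 5310 bases separate the hairpins. Both lie within the interval of Dnm3, chr13:76892381-77371346, which is on the minus strand, so that they are antisense to that gene. The Mir214 hairpin is printed to show which arm the array's miR-214 is, with the mature sequence in capitals near its 3′ end.
Mir214 hairpin: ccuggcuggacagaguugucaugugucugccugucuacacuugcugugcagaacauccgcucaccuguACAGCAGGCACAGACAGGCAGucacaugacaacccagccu
In mouse and human, miR-199a also comes from another hairpin within a dynamin 2 intron, and miR-199b, within dynamin 1, has the same 3p arm. The array reads mature miRNAs and cannot assign them to a locus.

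All 3 miRNAs were detected on all 15 arrays. Each was read by 2 probes with 10 spots per probe, and 900 of 900 of these spots were well above background. The variation between spots of one probe on one array was small, with a median coefficient of variation of 4.12% and a range of 0.664% to 11.8%. Together the 3 miRNAs took 2.09% to 2.48% of the summed signal in uninjured nerve, 1.60% to 1.82% on day 1, 2.57% to 3.00% on day 4, 3.14% to 3.49% on day 7 and 2.91% to 3.65% on day 14.

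Across all 350 miRNAs, 200 to 239 were detected per array, except for 172 on day 14 replicate 3, which lay on a slide of its own with its own scan day. The groups of day 0, day 1 and day 4 each lay on a slide of their own, and day 0 and day 1 each had a scan day of their own. In every comparison with day 0 or day 1, slide and scan day therefore cannot be told apart from time after injury. This includes the differences between miRNAs on an array. In comparisons with day 4, slide and time cannot be told apart. All 6 markers of myelinating glia were detected on at least 1 array of uninjured nerve, though not all 6 on each of them. Of 7 epithelial markers, 5, those of the miR-200 family, were detected on no array. Levels below are log2 of the background-subtracted intensity divided by the array's 75th percentile over 164 miRNAs detected on all arrays, so that 0 is that percentile. Levels of different miRNAs are not compared, since probes differ in binding. Changes were tested with limma over the 231 miRNAs that some group had on all of its 3 arrays, adjusted by the Benjamini-Hochberg method within each comparison, with a threshold of 0.05. Over these 231 the median log2 change from day 0 was -0.26 on day 1, -0.26 on day 4, -0.32 on day 7 and -0.37 on day 14, and a change less this median is given below as relative to all miRNAs. This overall fall depended on the scaling. Scaled by the 75th percentile of all 350 miRNAs, the median was -0.08, 0.05, 0.04 and -0.0077 on days 1, 4, 7 and 14, and on day 14 it was 0.02 without scaling. With the scaling set taken from the 14 arrays other than day 14 replicate 3 it was -0.04, -0.11, -0.16 and -0.35, and with that array left out of the fit as well it was -0.04, -0.11, -0.16 and -0.26. In whole nerve, fewer cells of a type and less of a miRNA per cell cannot be told apart.

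All 3 miRNAs differed among the 5 times. miR-214 had the highest F of the 3 (52.2, adjusted p = 9.76e-07, limma), with rank 13 of 231 by F, followed by miR-199a-5p (37.3, adjusted p = 3.65e-06, rank 27) and miR-199a-3p (23.7, adjusted p = 2.81e-05, rank 48). The same test called 86.1% of all miRNAs, so that a call among the 5 times is common on these arrays. All 3 were lowest on day 1. From there the course of miR-199a-3p parted from that of the other two.

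**Figure D1:**
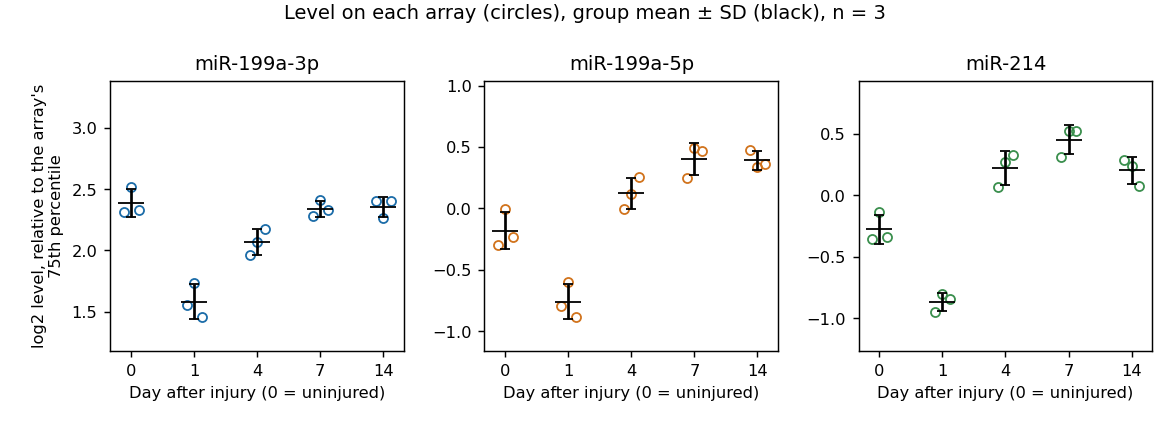
Log2 level of each miRNA (intensity over the array's 75th percentile, vertical axis, same span in each panel but a different start) against day after injury, where 0 is uninjured nerve. Circles are arrays and black bars the mean ± SD of 3 arrays. All 3 miRNAs are lowest on day 1, and only miR-199a-5p and miR-214 stand above day 0 from day 4 on under this scaling; under 3 other scalings miR-199a-3p also passed as higher on days 7 and 14.

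miR-214, whose hairpin is downstream of Mir199a2 on the plus strand, had log2 levels of -0.95, -0.81 and -0.84 on day 1, against -0.35, -0.14 and -0.34 in uninjured nerve. All 3 day 1 arrays were below all 3 uninjured arrays, as was the case for 38.1% of the 231 miRNAs. The change was -0.59 ± 0.10 (SE, limma, adjusted p = 0.000321), where 43.7% of all miRNAs passed as lower; it is 1.51-fold lower, and -0.33 relative to all miRNAs.

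On day 4 miR-214 was at 0.07, 0.27 and 0.33, and on day 7 at 0.31, 0.52 and 0.52, against the same uninjured levels of -0.35, -0.14 and -0.34. Every array of days 4 and 7 was above every uninjured array, as for 25.1% of all miRNAs on day 4 and 20.8% on day 7. miR-214 was 1.41-fold higher on day 4 (log2 0.50 ± 0.10, adjusted p = 0.000783, limma), where 20.3% of all miRNAs passed as higher. It was 1.66-fold higher on day 7 (0.73 ± 0.10, 95% interval 0.51 to 0.95, adjusted p = 3.61e-05), where 17.3% passed as higher. On day 7 it ranked 26 of 231 from the highest change, and was 1.05 above the median of all miRNAs. On day 14 its levels of 0.29, 0.24 and 0.08 were again above all uninjured arrays, by 0.48 ± 0.10 (adjusted p = 0.00125, limma); 16.0% of all miRNAs passed as higher and 16.0% had groups that did not overlap in that direction. The day 14 levels also lay below all day 7 levels, as for 22.5% of all miRNAs, but the difference of -0.25 ± 0.10 did not pass (adjusted p = 0.13, limma). Within the slide that holds both groups it was -0.19 (adjusted p = 0.317, limma), whereas it passed with quantile normalisation (-0.35, adjusted p = 0.0238, limma) and with the scaling set from 14 arrays (-0.40, adjusted p = 0.0406, limma).

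miR-199a-5p has another seed than miR-214 and had the course most like it under the main scaling. On day 1 its log2 levels were -0.79, -0.60 and -0.88, against -0.30, -0.0083 and -0.23 in uninjured nerve. The groups did not overlap, as for 38.1% of all miRNAs in that direction. miR-199a-5p was 1.49-fold lower on day 1 (log2 -0.58 ± 0.11, adjusted p = 0.000664, limma), or -0.32 relative to all miRNAs.

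On day 4 miR-199a-5p was at -0.0036, 0.12 and 0.25, against -0.30, -0.0083 and -0.23 in uninjured nerve. The lowest day 4 array stood only just above the highest uninjured one, and 25.1% of all miRNAs had no overlap in that direction. The change of 0.30 ± 0.11 passed with an adjusted p = 0.028 (limma), but it no longer passed without day 0 replicate 1 (0.24, adjusted p = 0.0967), day 0 replicate 3 (0.28, adjusted p = 0.0779), day 4 replicate 2 (0.31, adjusted p = 0.0634) or day 4 replicate 3 (0.24, adjusted p = 0.116).

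By day 7 its levels were 0.25, 0.49 and 0.47, and on day 14 they were 0.48, 0.33 and 0.36. All 6 of these arrays were above the 3 uninjured arrays, as for 20.8% of all miRNAs on day 7 and 16.0% on day 14. miR-199a-5p was 1.50-fold higher on day 7 (log2 0.58 ± 0.11, 95% interval 0.34 to 0.82, adjusted p = 0.000458, limma), and 1.49-fold higher on day 14 (0.57 ± 0.11, 95% interval 0.33 to 0.81, adjusted p = 0.000622). Days 14 and 7 differed by -0.01 ± 0.11 (95% interval -0.25 to 0.23, adjusted p = 0.964, limma). A change between them of up to about 0.25 in size thus remained possible with 3 arrays per group.

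miR-199a-3p, the other arm of the same hairpin, is known for repressing mTOR and Met. Its log2 levels on day 1 were 1.56, 1.74 and 1.46, against 2.31, 2.52 and 2.33 in uninjured nerve. The groups did not overlap, as for 38.1% of all miRNAs that were lower on day 1. The change of -0.80 ± 0.10 (95% interval -1.02 to -0.59, adjusted p = 2.85e-05, limma) is a 1.75-fold lower level, and is -0.55 relative to all miRNAs.

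On day 4 miR-199a-3p was at 1.96, 2.07 and 2.18, against the uninjured 2.31, 2.52 and 2.33. All 3 were below the uninjured arrays, as for 51.9% of all miRNAs. The change of -0.32 ± 0.10 passed (adjusted p = 0.0122, limma), where 45.5% passed as lower, and was -0.06 relative to all miRNAs, but it did not hold: it was 0.30 after quantile normalisation and 0.22 in the table the authors deposited, and without day 14 replicate 3, which alters the miRNAs used for scaling, it was -0.17 (adjusted p = 0.17). Without day 4 replicate 1 it was -0.26 and also did not pass (adjusted p = 0.057). The direction of miR-199a-3p on day 4 is thus not settled by these arrays.

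On day 7 the levels of miR-199a-3p, at 2.28, 2.41 and 2.33, and on day 14, at 2.40, 2.26 and 2.40, overlapped the uninjured levels of 2.31, 2.52 and 2.33. The change was -0.05 ± 0.10 on day 7 (95% interval -0.26 to 0.17, adjusted p = 0.67, limma) and -0.03 ± 0.10 on day 14 (95% interval -0.24 to 0.18, adjusted p = 0.793). Neither passed, and the sign depended on the scaling: scaled by the 75th percentile of all 350 miRNAs, by quantiles, or as in the deposited table, miR-199a-3p was higher and passed, by 0.32, 0.41 and 0.30 on day 7 and by 0.33, 0.38 and 0.28 on day 14. Relative to all miRNAs the main values were 0.28 on day 7 and 0.34 on day 14.

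Apart from the fall of miR-199a-3p on day 4, the calls of the 3 miRNAs against day 0 were thus lower on day 1, a direction in which 43.7% of all miRNAs passed, and, for miR-199a-5p and miR-214, higher on days 4, 7 and 14, a direction in which 16.0% to 20.3% passed. These shares are those of the main scaling. Of the 231 miRNAs, 39 passed as higher and 101 as lower on day 1 under it, and 54 and 58 with the scaling set from 14 arrays. On day 4 the counts were 47 and 105 under it, and 74 and 74 with the percentile over all miRNAs. On day 14, 37 passed as higher and 117 as lower under it, but 70 and 54 with the percentile over all miRNAs and 64 and 42 without scaling. All 5 other scalings kept the direction of all 3 miRNAs on day 1 and the higher levels of miR-199a-5p and miR-214 on days 4, 7 and 14, although the rise of miR-199a-5p on day 4 did not pass without scaling (0.15, adjusted p = 0.418, limma).

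**Figure D2:**
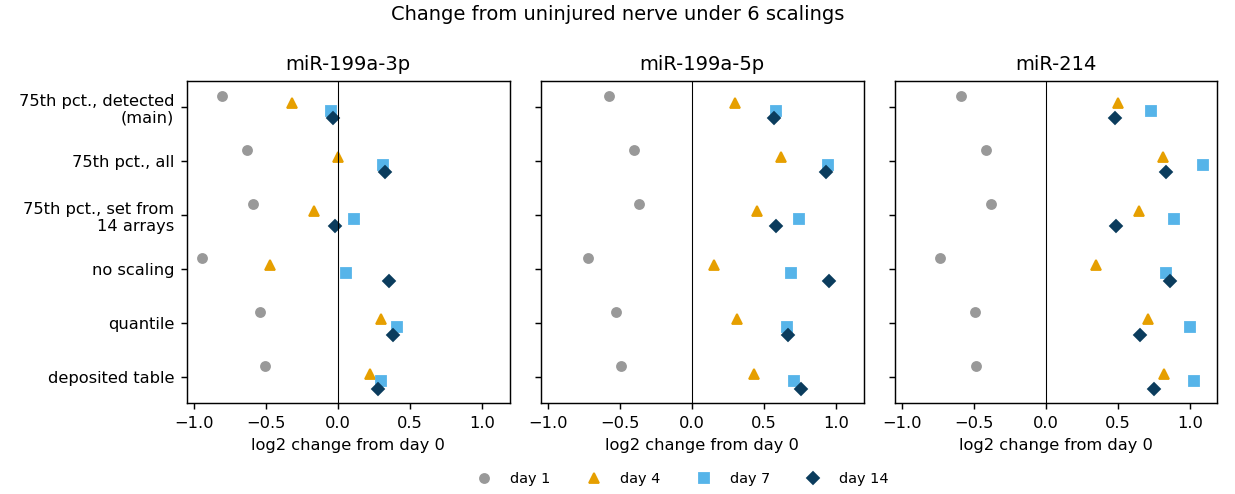
Log2 change from day 0 (horizontal axis) of each miRNA under 6 scalings (rows), with one symbol per day. Day 1 lies left of 0 in every panel and row; days 4, 7 and 14 lie right of 0 for miR-199a-5p and miR-214, while those of miR-199a-3p lie on either side of 0, at -0.32 on day 4 under the main scaling and at 0.30 with quantile normalisation.

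Between times, all 3 passed as higher on day 4 against day 1. On day 4 against day 1, miR-214 was 2.13-fold higher (log2 1.09 ± 0.10, adjusted p = 3.58e-06, limma), with rank 12 of 231 from the highest. miR-199a-5p was 1.84-fold higher (0.88 ± 0.11, adjusted p = 4.54e-05) and miR-199a-3p 1.40-fold higher (0.49 ± 0.10, adjusted p = 0.0012), where 27.7% of all miRNAs passed as higher. All 3 had day 4 arrays above all day 1 arrays, as did 28.6% of all miRNAs.

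On day 7 against day 4 none of the 3 passed, with changes of 0.23 for miR-214 (adjusted p = 0.241, limma), 0.28 for miR-199a-5p (adjusted p = 0.188) and 0.27 for miR-199a-3p (adjusted p = 0.173), and 6.06% of all miRNAs were called. On day 14 against day 7 the changes of miR-199a-3p (0.02, adjusted p = 0.93) and of miR-199a-5p did not pass either, where 13.9% were called. On day 14 against day 1, miR-199a-5p was 2.22-fold higher (1.15 ± 0.11, adjusted p = 2.56e-06, limma) and ranked 7 of 231. miR-214 was 2.10-fold higher (1.07 ± 0.10, adjusted p = 2.56e-06) with rank 9, and miR-199a-3p 1.71-fold higher (0.77 ± 0.10, adjusted p = 2.73e-05) with rank 19, where 24.2% passed as higher.

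Whether the 2 arms of miR-199a changed in step was tested with their log2 difference on each array, in which an array's scaling factor cancels. Since the array cannot assign either arm to a locus, this difference may pool more than 1 hairpin. miR-199a-3p minus miR-199a-5p was 2.61, 2.53 and 2.57 in uninjured nerve, and 2.35, 2.34 and 2.34 on day 1. It was 1.97, 1.95 and 1.93 on day 4, 2.03, 1.92 and 1.86 on day 7, and 1.93, 1.93 and 2.04 on day 14. All 12 injured arrays were below all 3 uninjured arrays, and all arrays from day 4 on were below all day 1 arrays. The size of the difference itself carries the binding of the probes and has no meaning as a ratio of molecules; its change from day 0 was -0.23 on day 1, -0.62 on day 4, -0.63 on day 7 and -0.60 on day 14. The 5 group means spanned 0.63, and the difference varied among the groups by an exact permutation test over 1401400 partitions of the 15 arrays (two-sided, p = 0.000173, adjusted p = 0.00026 over 3 pairs).

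The shift of the arms toward miR-199a-5p was present in each of the 4 combinations of a 3p and a 5p probe, with changes of -0.59 to -0.70 on day 7 and every injured array below every uninjured array. It was also visible in plain intensities of 2 arrays on which miR-199a-3p was alike, a pair chosen after its values were seen. miR-199a-3p had an intensity of 3189 on day 7 replicate 1 and of 3166 on day 0 replicate 1. On the same arrays miR-199a-5p had 781 on day 7 replicate 1 and 518 on day 0 replicate 1, and miR-214 had 817 on day 7 replicate 1 and 499 on day 0 replicate 1. The shift was smaller in other sets of values. With quantile normalisation the changes were -0.02 on days 1 and 4, -0.25 on day 7 and -0.29 on day 14 (adjusted p = 0.0244, exact permutation test), and in the deposited table they were -0.01, -0.21, -0.41 and -0.48 on the 4 days (adjusted p = 0.0012, exact permutation test).

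miR-214 parted from miR-199a-3p in the same way. miR-214 minus miR-199a-3p was -2.66, -2.66 and -2.67 in uninjured nerve, -2.50, -2.54 and -2.30 on day 1, and -1.90, -1.80 and -1.85 on day 4. It was -1.96, -1.89 and -1.81 on day 7, and -2.12, -2.02 and -2.32 on day 14. All injured arrays were above all uninjured ones, and the changes from day 0 were 0.21, 0.81, 0.78 and 0.51 on the 4 days. The groups differed by the exact permutation test (two-sided, p = 1.14e-05, adjusted p = 3.43e-05). How often other pairs of miRNAs from different hairpins part in this way was not tested. Of single miRNAs, 86.1% differed among the 5 times. With quantile normalisation the changes were 0.05, 0.41, 0.59 and 0.27 (adjusted p = 0.000933, exact permutation test), and in the deposited table they were 0.02, 0.60, 0.73 and 0.48 (adjusted p = 0.000621, exact permutation test), so that the size of the day 1 change depended on the values used.

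miR-214 and miR-199a-5p, from hairpins 5310 bases apart, had group means that spanned 0.29, where the other two pairs spanned 0.63 and 0.81. That order depended on the values used: with quantile normalisation miR-214 minus miR-199a-5p spanned 0.41, and the 2 arms of miR-199a spanned 0.29. miR-214 minus miR-199a-5p was -0.05, -0.13 and -0.10 in uninjured nerve and -0.16, -0.20 and 0.04 on day 1. It was 0.07, 0.15 and 0.08 on day 4, 0.06, 0.03 and 0.05 on day 7, and -0.19, -0.09 and -0.28 on day 14. The arrays of days 4 and 7 were above all uninjured and day 14 arrays, with changes from day 0 of 0.20 and 0.15, against -0.01 on day 1 and -0.09 on day 14. The groups differed by the exact permutation test (two-sided, p = 0.00733, adjusted p = 0.00733), again without a share over other pairs to set beside it. With quantile normalisation the changes of days 4 and 7 were larger, 0.40 and 0.34, and in the deposited table they were 0.39 and 0.32.

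**Figure D3:**
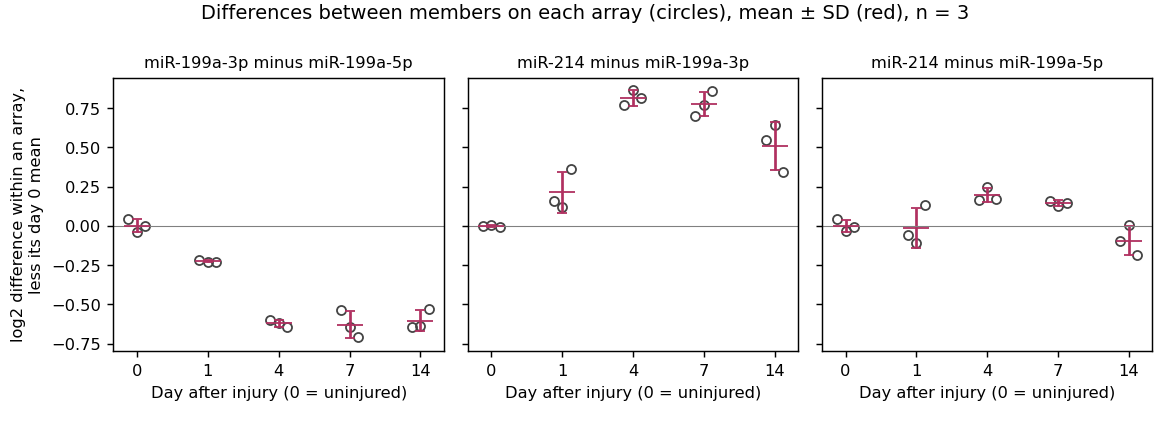
Log2 difference between 2 miRNAs on the same array, less the mean of that difference in uninjured nerve (vertical axis), against day after injury. Circles are arrays and red bars the mean ± SD of 3 arrays, under the main scaling. The first panel falls by 0.60 to 0.63 from day 4 on, the second rises by 0.81 on day 4, and the third stays between -0.09 and 0.20.

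Among hairpins with both arms on the array, 80 in number, 16 had both arms detected on all arrays, and these give a scale for the change between the arms. Under the main scaling the size of the change for miR-199a was 0.23 on day 1, beside a median of 0.23 over the 16 hairpins. On day 4 it was 0.62, where the median was 0.27, and 3 of the 16 hairpins, miR-199a included, changed by at least as much. On day 7 it was 0.63, where the median was 0.20, and 2 hairpins, miR-199a included, reached that size; the other was miR-340, with a change of -1.10 in the 3p minus 5p difference. On day 14 it was 0.60, where the median was 0.21, again reached by 2 hairpins. On day 7 the difference between arms did not overlap between injured and uninjured arrays for 10 of 16 hairpins, so that a shift as such was common.

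The 6 probes were also read one by one. Both miR-214 probes gave the same course, with changes from day 0 of -0.61 and -0.56 on day 1, 0.49 and 0.52 on day 4, 0.72 and 0.73 on day 7, and 0.47 and 0.48 on day 14. The miR-199a-5p probes differed more, with -0.60 and -0.48 on day 1 and 0.29 and 0.35 on day 4, where the day 4 and uninjured arrays overlapped for the first and not for the second. The miR-199a-3p probes were at -0.80 and -0.81 on day 1, and from -0.06 to -0.02 on days 7 and 14. The 2 probes of each miRNA thus had the same sign at every time under the main scaling.

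**Figure D4:**
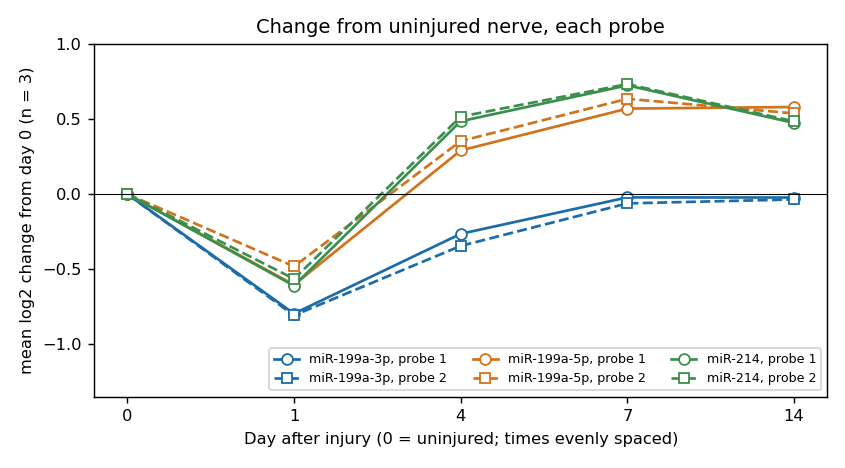
Mean log2 change from day 0 (vertical axis, 3 arrays per group) of each of the 6 probes against day after injury, with times evenly spaced. Colours are miRNAs, and solid and dashed lines the 2 probes of each; the miR-199a-3p probes end near 0 on days 7 and 14, and the other 4 probes end between 0.47 and 0.73 there, under the main scaling.

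Likeness of course was measured as the root mean square difference between log2 levels over the 15 arrays, each miRNA less its own mean, in which an array's scaling factor cancels; arrays of a group share slide and scan, except day 14 replicate 3, and no p is given. The miRNA most like miR-214 of 230 others was miR-199a-5p, and the converse held too, with a difference of 0.12. The median difference over all others was 0.61 for miR-214 and 0.60 for miR-199a-5p. miR-199a-3p ranked 5 of 230 for miR-199a-5p, with 0.26, and 12 of 230 for miR-214, with 0.33.

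Seen from miR-199a-3p, its own partner arm ranked 30 of 230 and miR-214 ranked 61. The closest miRNAs to miR-199a-3p were miR-322* (0.08), miR-450a (0.10), miR-379 (0.15), miR-376c (0.16) and miR-28 (0.16), where the median was 0.45. Outside the 3 miRNAs, the closest to miR-199a-5p were miR-322 (0.15), miR-335 (0.19), miR-542-3p (0.23), miR-542-5p (0.26) and miR-532-5p (0.27). For miR-214 they were miR-322 (0.19), miR-542-3p (0.24), miR-674-3p (0.24), miR-503 (0.24) and miR-335 (0.28). The hairpins of miR-322, miR-503, miR-542 and miR-450a lie near each other on chromosome X of GRCr8, from the start of Mir450a1 at 137720933 to the end of Mir322 at 137726241, and those of miR-379 and miR-376c lie on chromosome 6, so that none of these 6 hairpins shares the chromosome of Mir199a2 and Mir214. miR-322 and miR-322* are the 2 arms of one hairpin, and on day 7 miR-322 was at 0.33 and miR-322* at -0.15 from day 0.

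**Figure D5:**
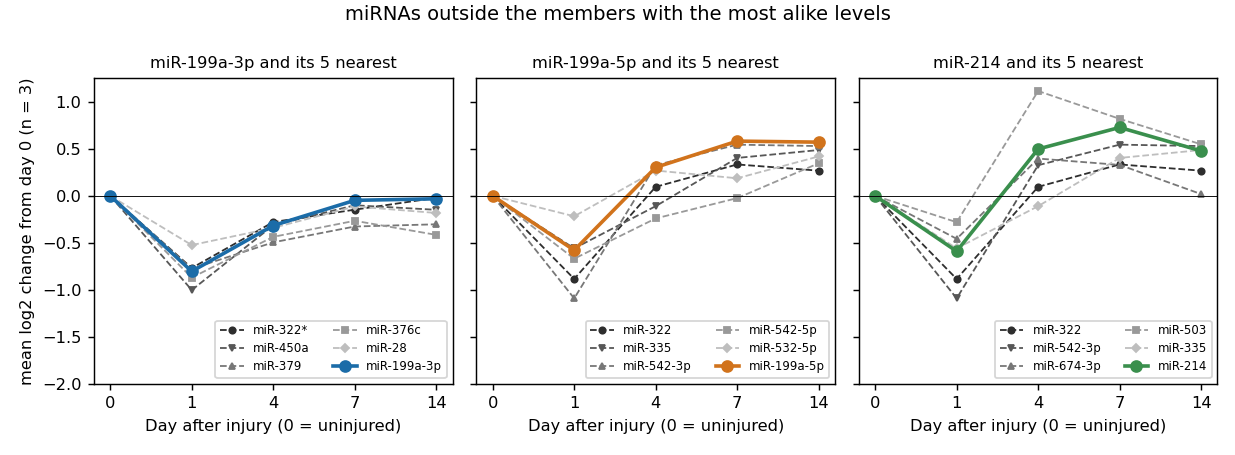
Mean log2 change from day 0 (vertical axis, 3 arrays per group) of each miRNA (thick coloured line) and of the 5 miRNAs outside the 3 with the smallest root mean square difference from it (dashed grey lines), against day after injury, under the main scaling. In the first panel all lines stay at or below 0, where other scalings put miR-199a-3p above 0 on days 7 and 14; in the other 2 panels miR-322 and miR-542-3p follow the fall on day 1 and the higher levels on days 7 and 14.

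Other miRNAs linked to mesenchyme and matrix did not share one course. The list held miR-143, miR-145, miR-21, miR-29a, miR-29b, miR-29c, miR-140, miR-140*, miR-455 and miR-152. Of its 10 miRNAs, all tested, 3 passed as higher and 2 as lower on day 1, 4 and 4 on day 4, 5 and 3 on day 7, and 4 and 3 on day 14. Over all miRNAs, 16.9% passed as higher and 43.7% as lower on day 1, 20.3% and 45.5% on day 4, 17.3% and 45.5% on day 7, and 16.0% and 50.6% on day 14. The median change of the list was -0.04, 0.01, 0.17 and 0.21 on these days, beside -0.26, -0.26, -0.32 and -0.37 over all miRNAs. Scaling moved these too: with quantile normalisation the list had 5 rises and 2 falls, 6 and 2, 6 and 3, and 6 and 4, whereas without scaling it had 2 and 5 on day 1 and 2 and 4 on day 4, with medians of -0.19 and -0.15. Over all 231 miRNAs, quantile normalisation gave 57 rises and 87 falls, 68 and 87, 59 and 74, and 60 and 84. Without scaling there were 32 and 127 on day 1 and 33 and 124 on day 4, with medians of -0.39 and -0.41. With the percentile over all miRNAs the list's medians were 0.13, 0.32, 0.54 and 0.57, beside -0.08, 0.05, 0.04 and -0.0077 over all miRNAs.

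miR-21, which fibroblasts and many other cells induce in inflammation and growth, had the largest rise of the list at each time under the main scaling, by 1.51 ± 0.12 (SE) on day 1, 3.03 ± 0.12 on day 4, 3.19 ± 0.12 on day 7 and 2.68 ± 0.12 on day 14 (adjusted p from 6.75e-11 to 6.42e-07, limma). Unlike miR-199a and miR-214, miR-21 was already higher on day 1. miR-152, which represses DNA methyltransferase 1, had the largest fall on days 1, 4 and 7 under that scaling, by -0.58 ± 0.11, -0.75 ± 0.11 and -0.81 ± 0.11 (adjusted p = 0.00062, 5.53e-05 and 2.92e-05, limma). On day 14 miR-145, a smooth muscle miRNA, was at -0.76 ± 0.11 (adjusted p = 7.11e-05, limma) and miR-152 at -0.75 ± 0.11 (adjusted p = 6.95e-05, limma). Which of these 2 fell more depended on the setting: miR-152 was at -0.84 and miR-145 at -0.50 with quantile normalisation. In the deposited table, miR-455 had the largest fall of the list on day 1, which did not pass, and its largest rise on day 14. The only fall of the list that passed there on day 1 was that of miR-152 (-0.49, adjusted p = 0.00164, limma). These rises of miR-21 and falls of miR-152 and miR-145 kept their direction under all 5 other scalings.

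Markers of other cell types moved over the same times, and their part in the results on miR-199a and miR-214 was not tested. The 5 leukocyte miRNAs had a summed scaled level of 3.17 to 4.26 on day 1, 2.87 to 3.23 on day 4, 2.90 to 3.20 on day 7 and 2.20 to 2.81 on day 14, against 1.62 to 1.92 in uninjured nerve, with 3 of 5 higher at each time, where 16.0% to 20.3% of all miRNAs passed as higher, and miR-150 lower from day 4 on. The 6 myelinating glia miRNAs summed to 11.1 to 14.8 on day 1, 8.76 to 10.3 on day 4, 8.93 to 9.82 on day 7 and 10.3 to 14.0 on day 14, against 16.9 to 26.0 in uninjured nerve, with 3, 4, 4 and 5 of 5 tested lower, where 43.7%, 45.5%, 45.5% and 50.6% of all miRNAs passed as lower. miR-219-5p of this list was detected on no array of days 1, 4 or 7, and miR-211 on none of day 1. The 2 endothelial miRNAs were at 2.18 to 2.51 on day 1, against 3.16 to 3.45 in uninjured nerve, and the 2 smooth muscle miRNAs, miR-143 and miR-145, at 2.27 to 2.68 on day 4, against 3.42 to 3.91. The 5 skeletal muscle miRNAs ranged from 0.719 to 16.3 in uninjured nerve, and the 2 erythrocyte miRNAs from 3.04 to 9.53 on day 1, against 0.734 to 3.98 in uninjured nerve, so that these sums differed widely between arrays of a group. The 7 epithelial miRNAs stayed at 0.0714 to 0.118 in all injured groups, against 0.0969 to 0.103 in uninjured nerve.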

How the data were processed

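The authors' array files hold an intensity per spot, background-subtracted and not scaled between arrays; per the file headers, the software was Agilent Feature Extraction 10.7.3.1. Control and outlier spots were left out. Spots were averaged to probes and probes to miRNAs. Division by the array's 75th percentile over 164 miRNAs detected on all arrays followed, values under 0.00362 were set to it, and log2 was taken. The authors also deposited a value table, in log2 as judged from its values, with medians of 4.12 in 14 columns and 0.834 in day 14 replicate 3; how the authors scaled and centred it is unknown, and it served as an alternative.

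limma 3.58.1 in R 4.3.3 fitted 5 group means to 15 arrays (10 residual and 3.28 prior degrees of freedom); tests are two-sided. Errors are SE, and n = 3 arrays per group limits the precision. The exact permutation tests used Python 3.11.15, with pandas 2.3.3, numpy 2.4.6 and matplotlib 3.10.9. Both steps were tested on simulated data. The 3 miRNAs and the lists were chosen with earlier results of these data known. Named beside the 3 miRNAs are the 5 most alike miRNAs of each and, of the mesenchymal list, the largest rise and fall from day 0 at each time.

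No pairing of the arrays by replicate number was seen: of 30 same-number pairs, whose deviations correlated from -0.78 to 0.59, 8 were over 0.1. Pairs of different number were not set beside these, so a pairing is not excluded. Alternatives covered scaling, background correction, source of values, probe summary, detection filter, outlier spots, slide, scan day, replicate number, samples in the fit and each array left out. The files have no mean spot signal, so normexp ran on median signals. The rat GRCr8 tables of RefSeq gave sequences and positions only.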

Additional observations from a re-analysis of the deposited data

How the results depend on the processing

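Of 450 recomputed member results outside the fits that leave out an array, 431 kept their side of the threshold and, where they passed, their direction. The 450 include settings that are no check of these miRNAs: the median probe summary and slide or scan day as a random block. They also include the software's total signal, which left the differences between miRNAs all but unchanged. Results that did not pass were counted whatever their sign. Without scaling, miR-199a-3p was at 0.06 on day 7 and 0.35 on day 14, and neither passed. miR-199a-3p turned sign and passed as higher when scaled by the 75th percentile of all 350 miRNAs (0.32 on day 7, 0.33 on day 14), with quantile normalisation (0.30 on day 4, 0.41 on day 7, 0.38 on day 14) and in the deposited table (0.22, 0.30 and 0.28). Its fall on day 4 did not pass with that percentile (-0.0023), with outlier spots kept (-0.22), or with the scaling set taken from the 14 arrays other than day 14 replicate 3 (-0.17), which like scan day and quantile normalisation of the differences was chosen after seeing the data. The rise of miR-199a-5p on day 4 did not pass without scaling (0.15) or with only the groups compared in the fit (0.30, adjusted p = 0.0525, limma). Calls were gained on day 7 against day 4 without scaling (0.52 for miR-199a-3p, 0.54 for miR-199a-5p, 0.49 for miR-214) and with only the groups compared (0.27 for miR-199a-3p), and for miR-214 on day 14 against day 7 with quantile normalisation (-0.35) and the scaling set from 14 arrays (-0.40). The causes were not tested.

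Without one array in turn, the day 4 change ranged from -0.37 to -0.17 for miR-199a-3p and from 0.24 to 0.45 for miR-199a-5p, and these 2 alone lost calls, in 6 of 450 results. The day 1 changes ranged from -0.88 to -0.59, -0.66 to -0.37 and -0.63 to -0.38 for miR-199a-3p, miR-199a-5p and miR-214, and those of day 7 for the last 2 from 0.52 to 0.74 and 0.69 to 0.89. The replicate block changed no call (miR-214 on day 7: 0.73, adjusted p = 4.47e-05, limma; miR-199a-5p on day 4: 0.30, adjusted p = 0.0226). Slide or scan day as a random block is no check of either, since day 14 alone spans more than 1 slide or scan day. With the block, 41 miRNAs were called higher on day 7, against 40 without it; 5 of 15 arrays correlated best with an array of their own number. All 3 differences between miRNAs kept their side of the threshold in 21 alternatives each. Leaving out each of the 15 arrays in turn made up most of these. The median probe summary, which could not change a difference, and the software's total signal, which hardly did, are counted too. On day 4, miR-199a-3p minus miR-199a-5p was -0.62 in the main setting, -0.02 after quantile normalisation and -0.21 in the authors' values. It was -0.58 with normexp and -0.63 with log2 values averaged over probes. Counts over all miRNAs moved more: on day 7, 82 were called higher and 63 lower with the percentile over all miRNAs, 59 and 74 with quantile normalisation, and 40 and 105 in the main setting. The median probe summary could not change the 3 miRNAs, which have 2 probes each. All 900 of their spots were well above background. With normexp background correction the change of miR-199a-3p minus miR-199a-5p on day 7 was -0.57, against -0.63 in the main setting.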
